A study of Mus musculus with 4 samples.

Results

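Muscle chaperones keep the contractile proteins of striated muscle foldable while they are made and assembled. The 10 genes of this kind examined here were Smyd1, Unc45b, Hspb1, Hspb2, Hspb3, Hspb6, Hspb7, Hspb8, Cryab and Bag3. They were chosen by name from the 20701 gene symbols of the deposited transcript table, with earlier results of these data known. For each symbol the RefSeq entry with the highest summed count over the 4 libraries was kept. The RNA came from Nkx2-5–GFP+ cardiac progenitor cells (CPCs), which were obtained by differentiating mouse embryonic stem cells and were sorted for GFP at day 5. All libraries came from the E14 Tg(Nkx2-5-EmGFP) line, in which the fluorescent protein reports Nkx2-5, a cardiac transcription factor gene. Control clones gave 2 libraries, as did Isl1-/- clones made by CRISPR/Cas9 editing, each library standing for a clone. GEO's design text calls the lines knockdown whereas the sample titles say knockout, and the titles were followed.

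Small heat-shock proteins bind partly unfolded proteins without using ATP and hold them until ATP-driven chaperones refold them. In heart and skeletal muscle they associate with desmin, filamin, titin and actin. Unc45b is a myosin chaperone that works together with Hsp90, Smyd1 is a muscle lysine methyltransferase needed for the assembly of myosin into thick filaments, and Bag3 is a co-chaperone that joins Hspb8 to Hsp70 and directs damaged proteins at the Z-disc to degradation.

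The libraries held 8821517 and 9147425 counts in control and 13186109 and 11388333 counts in Isl1-/- CPCs over 1 entry per gene. Chi-square divided by its degrees of freedom was 1.14 for the control pair, near the value 1 of pure counting error, and 18.7 for the Isl1-/- pair. The targeted gene, Isl1, was counted 309 and 326 times in control CPCs but 17 and 24 times in Isl1-/- CPCs, and its log2 fold change was -4.39 (SE 0.21, adjusted p = 0.00277, edgeR's quasi-likelihood test). Of 8 cardiac muscle markers, 7 (Nkx2-5, Tbx5, Tnnt2, Tnni1, Actc1, Myl7 and Myl4) were lower at an adjusted p under 0.05 in that test, with log2 fold changes from -5.67 (Myl7) to -2.16 (Nkx2-5), and the summed level of the 8 was 1119 and 1123 CPM (counts scaled to the library size) in control and 184 and 153 CPM in Isl1-/- CPCs. The level of Nkx2-5 itself, the gene of the sort, averaged 20.5 ± 0.925 CPM in control CPCs and 4.55 ± 0.303 CPM without Isl1 (SD, n = 2 each). Skeletal muscle markers summed to at most 0.908 CPM in any library, and Myf5 and Myod1, which define that lineage, had 0 counts in all 4, which allows up to 3 counts in a library (0.228 to 0.340 CPM). In sorted pools such as these, fewer cells of a type and less RNA per cell cannot be told apart, and the part of the cardiac muscle cells in the values below was not tested.

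Promoter sequences were at hand for 8 of the 10 genes, as RefSeq windows on GRCm38.p6. Hspb2 and Cryab had no window and were not searched. Sequences are shown for the 3 genes with the largest decreases and for Hspb1, which holds 2 heat-shock element cores. Each line gives the 250 bases before the annotated start, 5′ to 3′ on the gene's strand, with matches to the searched motifs in capitals.

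Smyd1 (chr6:71262282-71262531, minus strand): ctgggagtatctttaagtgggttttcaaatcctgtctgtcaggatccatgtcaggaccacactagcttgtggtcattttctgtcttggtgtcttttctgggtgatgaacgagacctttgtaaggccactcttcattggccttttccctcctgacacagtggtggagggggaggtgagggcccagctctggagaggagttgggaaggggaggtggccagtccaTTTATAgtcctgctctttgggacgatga
Hspb7 (chr4:141420529-141420778, plus strand): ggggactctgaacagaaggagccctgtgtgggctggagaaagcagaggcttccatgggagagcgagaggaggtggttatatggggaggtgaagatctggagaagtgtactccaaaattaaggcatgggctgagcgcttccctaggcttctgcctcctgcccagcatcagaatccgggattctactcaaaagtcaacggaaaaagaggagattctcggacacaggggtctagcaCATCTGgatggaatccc
Unc45b (chr11:82911003-82911252, plus strand): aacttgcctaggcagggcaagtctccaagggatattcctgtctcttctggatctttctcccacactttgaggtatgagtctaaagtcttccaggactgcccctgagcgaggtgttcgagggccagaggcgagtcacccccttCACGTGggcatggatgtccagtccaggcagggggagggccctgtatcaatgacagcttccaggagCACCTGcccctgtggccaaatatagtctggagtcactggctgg
Hspb1 (chr5:135887669-135887918, plus strand): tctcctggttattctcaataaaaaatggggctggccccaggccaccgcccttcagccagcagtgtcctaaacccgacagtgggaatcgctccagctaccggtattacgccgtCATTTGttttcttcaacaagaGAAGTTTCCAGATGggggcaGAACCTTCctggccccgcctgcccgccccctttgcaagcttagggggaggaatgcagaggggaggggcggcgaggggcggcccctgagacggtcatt

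The motifs searched on both strands were the heat-shock element cores GAANNTTC and TTCNNGAA, the E-box CANNTG, the TATA motif TATAAA, the homeodomain motif CTAATG, which is of the type that Isl1 binds, the CArG box and the MEF2 box. Within TTTATA of the Smyd1 window lies TATAAA on the other strand, 28 to 23 bases before the start, and TATAAA was in 12.4% of all 32851 windows. The Hspb7 window held the E-box CATCTG and the Unc45b window held CACGTG and CACCTG, while 66.2% of all windows held an E-box. The Hspb1 window held GAAGTTTC, directly followed by the E-box CAGATG, and GAACCTTC, both cores lying 117 to 90 bases before the start, and a further E-box, CATTTG. A heat-shock core of either kind was in 12.8% of all windows. CTAATG, held by 6.36% of all windows, was found among the 8 searched members in 1 of the 2 windows of Hspb6 alone. That window and the Hspb3 window also held GAANNTTC, and the Hspb3 window held the only MEF2 box among these 8 members, overlapping its TATAAA. The CArG box, held by 1.47% of all windows, was found in none of theirs. No searched motif was found in the Bag3 window, which says only that these letters are not in it. These matches are descriptions of letters and not of bound sites.

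Of the 10 genes, 9 had enough counts to be tested, and 2 of them, Smyd1 and Hspb7, were lower in Isl1-/- CPCs at an adjusted p under 0.05 (called below), with 0 called higher. Among all 12715 genes tested, 2.45% were called in either direction and 1.94% were called lower. A log2 fold change under -1 was found for 5 members (Smyd1, Hspb7, Unc45b, Hspb2 and Cryab), against 5.06% of all genes. Of these 5, Smyd1, Hspb2 and Hspb7 reached the filter's cutoff of 0.974 CPM in both control libraries but in only 1 of the 2 Isl1-/- libraries. The other 6 tested members reached it in all 4 libraries, and 2 of them (Unc45b and Cryab) were under -1. These 6 were not called, so both called members passed the filter through the control libraries alone. Both Isl1-/- libraries lay below both control libraries for 6 members, against 29.0% of all genes. These were Smyd1, Hspb2 and Hspb7, which passed the filter in that way, and Unc45b, Hspb1 and Cryab. With the criteria of the study's methods (DESeq2, over 1.5-fold, unadjusted p under 0.05) 5 members were lower, and 4.57% of 16855 genes were lower by them.

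**Figure D1:**
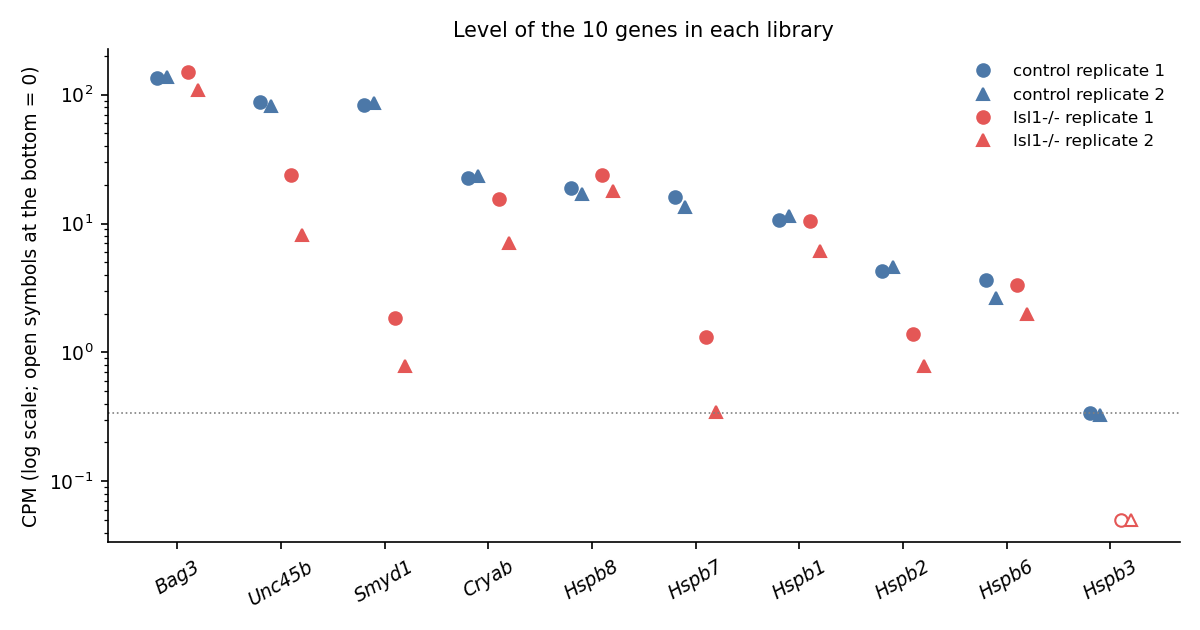
Level of each gene in each library, in CPM on a log scale, with genes ordered by their control mean; circles are replicate 1, triangles replicate 2, and the dotted line is 3 counts in the shallowest library (0.340 CPM). The control libraries lie close together for most genes above that line and are farthest apart for Hspb6 (3.63 and 2.63 CPM). The Isl1-/- libraries of Smyd1 (1.84 and 0.781 CPM) and Hspb7 (1.31 and 0.347 CPM) lie far below control, and Hspb3 has 0 counts in both Isl1-/- libraries.

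The factors of myosin folding and thick filament assembly held the largest decrease of the 10. Smyd1 (chromosome 6, 71163934 to 71272227 on mm9, minus strand) had 730 and 786 counts in control and 24 and 9 counts in Isl1-/- CPCs. In CPM these were 82.9 and 86.0 against 1.84 and 0.781, so the groups did not come near each other. The log2 fold change was -5.97 (SE 0.27, adjusted p = 0.00255, edgeR), or 62.5-fold lower. It stayed called when each library in turn was left out, at -6.73 to -5.51. The table has 2 Smyd1 entries, and the second had a log2 fold change of -5.94.

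Unc45b (chromosome 11, 82724052 to 82756905, plus strand), the muscle myosin chaperone, was at 87.5 and 82.1 CPM in control and 24.0 and 8.16 CPM in Isl1-/- CPCs. Both Isl1-/- libraries were below both control libraries, but they were far from each other. The log2 fold change was -2.39 (SE 0.45, 95% interval -3.53 to -1.24), and the gene was not called (adjusted p = 0.0705, edgeR). It passed with DESeq2 (adjusted p = 0.0217), and with either Isl1-/- library left out (-3.37 without replicate 1 and -1.82 without replicate 2), but not with either control library left out (adjusted p of 0.510 and 0.428, edgeR). Exons of Unc45b overlap the noncoding transcripts 1700003F17Rik and Gm12575 on the opposite strand, and counting was done on both strands together.

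Unc45a, the paralogue of Unc45b that is made in most cells, averaged 77.0 ± 2.10 CPM in control CPCs and 71.1 ± 7.12 CPM without Isl1 (SD, n = 2 each). It was not called (-0.11 on the log2 scale, SE 0.094, adjusted p = 0.512, edgeR). Hsp90aa1 and Hsp90ab1, the ATP-driven chaperones with which Unc45 proteins act, had log2 fold changes of 0.22 (SE 0.080) and 0.24 (SE 0.078) and were not called (adjusted p of 0.193 and 0.171, edgeR). Whether Unc45b differed in its change from Unc45a was not tested.

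The myosins that these factors fold fell with adjusted p of 3.8e-05 in edgeR's test. Myh6 had a log2 fold change of -6.92 (SE 0.11) and Myh7 of -5.76 (SE 0.080), and as near-identical neighbours they can share reads. The spread of the Isl1-/- pair was small for both, with 30 and 21 counts of Myh6 and 78 and 69 counts of Myh7.

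Among the small heat-shock proteins, Hspb7 was the one called. Hspb7 (chromosome 4, 140976694 to 140981226, plus strand), a family member enriched in heart that binds filamin C, had 141 and 122 counts in control and 17 and 4 counts in Isl1-/- CPCs. Its level was 16 and 13.3 CPM in control and 1.31 and 0.347 CPM in Isl1-/- CPCs. Both Isl1-/- libraries were low, and replicate 2 was close to the floor of 3 counts (0.263 CPM in that library). The log2 fold change was -4.09 (SE 0.44, adjusted p = 0.0213, edgeR), or 17.0-fold lower. Without control replicate 1 the gene was no longer called (-3.96, adjusted p = 0.228), nor was it without control replicate 2 (-4.23, adjusted p = 0.149), and without Isl1-/- replicate 1 the log2 fold change was -5.35. Flnc, the filamin C gene, averaged 662 ± 6.69 CPM in control CPCs and 629 ± 174 CPM without Isl1 (SD, n = 2 each) and was not called (-0.07 on the log2 scale, SE 0.19, adjusted p = 0.850, edgeR). It turned from -0.39 without Isl1-/- replicate 1 to 0.19 without replicate 2.

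Hspb2 and Cryab lie side by side on chromosome 9, on opposite strands and with 403 bases between them. Hspb2 (50559177 to 50560459, minus strand), a partner of the myotonic dystrophy protein kinase, was at 4.31 and 4.60 CPM in control and 1.38 and 0.781 CPM in Isl1-/- CPCs. The groups did not overlap, at 38 and 42 counts against 18 and 9. Its log2 fold change of -2.01 (SE 0.34, 95% interval -2.87 to -1.16) had an adjusted p of 0.0583 in edgeR's test and was not called, while DESeq2 gave an adjusted p of 0.0315. It was called with either Isl1-/- library left out (-2.49 without replicate 1 and -1.68 without replicate 2), but not with either control library left out (adjusted p of 0.516 and 0.513, edgeR). The other Hspb2 entry was at -1.99.

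Cryab (50560863 to 50564738, plus strand) encodes αB-crystallin, a chaperone of desmin. It was at 22.7 and 23.3 CPM in control and 15.5 and 7.11 CPM in Isl1-/- CPCs, so that both Isl1-/- libraries were lower and the control libraries nearly coincided. The log2 fold change was -1.01 (SE 0.35, 95% interval -1.91 to -0.12, adjusted p = 0.181, edgeR) and was not called. Cryab has 4 entries that share reads, and their log2 fold changes lay between -1.01 and -0.91. The longest entry, of 1110 bases, had 200, 213, 202 and 82 counts in the order of control and Isl1-/- replicates, and the entry of 878 bases had 189, 198, 202 and 82. Without Isl1-/- replicate 1 the log2 fold change was -1.69, and without replicate 2 it was -0.57, and Cryab was called in both of these fits, but not with either control library left out (adjusted p of 0.704 and 0.720, edgeR).

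Hspb3 (chromosome 13, 114453104 to 114453884, minus strand), the muscle partner of Hspb2, had 3 and 3 counts in control and 0 and 0 counts in Isl1-/- CPCs. Both groups were at or under the floor of 3 counts per library (0.228 to 0.340 CPM), so no difference was detectable at this depth and no fold is given.

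Hspb1, Hspb6, Hspb8 and Bag3, of which Hspb1, Hspb8 and Bag3 are made in many tissues, were not called, and their log2 fold changes lay between -0.39 and 0.23. Hspb1 (chromosome 5, 136363789 to 136365433, plus strand), known for binding actin filaments, was at 10.7 and 11.4 CPM in control and 10.5 and 6.16 CPM in Isl1-/- CPCs. Here replicate 1 of Isl1-/- was at the control level and replicate 2 was below it, and the 95% interval of the log2 fold change ran from -1.11 to 0.32 (adjusted p = 0.449, edgeR).

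Hspb6 (chromosome 7, 31337197 to 31340462, plus strand), which is abundant in heart and smooth muscle, was at 3.63 and 2.63 CPM in control and 3.31 and 2.00 CPM in Isl1-/- CPCs. The groups overlapped and the 95% interval was wide, from -1.13 to 0.68 (log2 fold change -0.23, adjusted p = 0.745, edgeR). Exons of Hspb6 overlap Lin37 and BC053749 on the opposite strand, so that its counts are less certain.

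Hspb8 (chromosome 5, 116858500 to 116872873, minus strand) was at 18.7 and 17.0 CPM in control and 23.8 and 17.9 CPM in Isl1-/- CPCs. The groups overlapped, and the log2 fold change was 0.23 (SE 0.18, 95% interval -0.22 to 0.68, adjusted p = 0.487, edgeR). Its co-chaperone Bag3 (chromosome 7, 135667097 to 135690491, plus strand) had the highest level of the 10 genes, at 133 and 137 CPM in control and 151 and 108 CPM in Isl1-/- CPCs. The Isl1-/- libraries lay on either side of control, and the log2 fold change was -0.06 (SE 0.16, 95% interval -0.46 to 0.35, adjusted p = 0.855, edgeR). Bag3 turned from -0.32 without Isl1-/- replicate 1 to 0.16 without replicate 2, and was called in both of these fits, as were Hspb1 (-0.84) without replicate 1 and Hspb8 (0.42) without replicate 2. In such fits the spread comes from the control pair alone, and 7 of the 9 tested members were called in each, beside 49.2% of all genes without replicate 1 and 32.5% without replicate 2. Without control replicate 1 or 2, when the spread comes from the Isl1-/- pair, 1 member (Smyd1) was called, beside 0.207% and 0.221% of all genes.

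**Figure D2:**
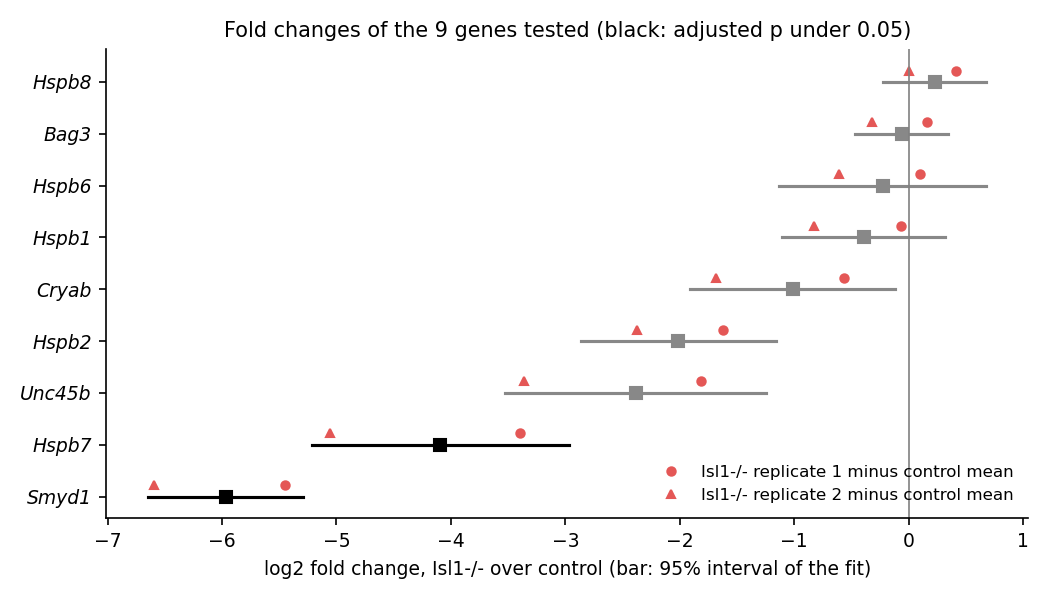
Log2 fold change, Isl1-/- over control, of the 9 tested genes (squares) with the 95% interval of the fit (bars), black where the adjusted p was under 0.05; the red circle and triangle are Isl1-/- replicates 1 and 2, each as log2 CPM minus the control mean. Smyd1 (-5.97) and Hspb7 (-4.09) are black, the intervals of Unc45b, Hspb2 and Cryab lie below 0 without being called, and in all 9 genes the triangle is left of the circle.

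Per length, as deposited RPKM (reads scaled to transcript length and library size), the members took another order in Isl1-/- CPCs. In control the order was Bag3 (29.5 ± 0.509 RPKM), Smyd1 (14.2 ± 0.375), Unc45b (13.5 ± 0.615), Cryab (11.7 ± 0.219), Hspb1 (6.93 ± 0.318), Hspb8 (5.56 ± 0.389), Hspb2 (3.0 ± 0.134), Hspb7 (3.0 ± 0.389), Hspb6 (1.34 ± 0.304) and Hspb3 (0.245 ± 0.00707, SD, n = 2 throughout). Smyd1 and Unc45b overlapped in their libraries, as did Hspb2 and Hspb7, so the order within these pairs is not set. The place of Cryab below Unc45b depends on the entry kept. Its entry of 878 bases was at 13.77 and 13.91 RPKM in control, between the libraries of Unc45b (13.98 and 13.11). In Isl1-/- CPCs Bag3 was again the highest, at 28.7 ± 5.83 RPKM, followed by Hspb8 (6.59 ± 1.15), Cryab (5.81 ± 2.91), Hspb1 (5.30 ± 1.82) and Unc45b (2.59 ± 1.75), and the libraries of neighbours in this order overlapped from Hspb8 to Cryab and Hspb1. Unc45b overlapped with the kept entry of Cryab and with Hspb6 (1.15 ± 0.375), and Hspb6 with Hspb2 (0.74 ± 0.269). Smyd1 lay below these, at 0.225 ± 0.120 RPKM, where it overlapped with Hspb7 (0.17 ± 0.141), so the order of these 2 is not set.

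The Isl1-/- libraries differed from each other in these genes. All 9 members with counts in Isl1-/- CPCs were higher in replicate 1 than in replicate 2, whereas 48.3% of all tested genes were. In control, 4 of the 9 tested members were higher in replicate 1. The ratio of CPM, replicate 1 over replicate 2, was 2.94 for Unc45b (95% exact interval 2.33 to 3.74), 2.18 for Cryab (1.68 to 2.86) and 1.39 for Bag3 (1.29 to 1.49), and a ratio at least that of Bag3 was found for 11.8% of all tested genes. The interval lay above 1 for 7 of the 9 members, those of Hspb2 and Hspb6 holding 1, and above 1 for 21.0% of the 12688 tested genes with counts in both libraries. For 42.4% of those genes it lay to either side of 1. The interval of the control pair held 1 for all 10 members. These intervals cover counting error only, and with 1 library a clone no difference between the clones can be tested.

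The marker lists differed between the same 2 libraries as well. Smooth muscle markers summed to 2173 CPM in Isl1-/- replicate 1 and 744 CPM in replicate 2, beside 2519 and 2526 CPM in control, and 0 of the 5 were called. Their median difference from the control mean was -0.12 in replicate 1 and -0.99 in replicate 2 (log2 CPM). For cardiac muscle markers it was -2.97 and -3.55, with sums of 184 and 153 CPM, although Myl4 was higher in replicate 2 (62 and 88 counts). Tbx5 (13 and 13 counts) and Myl7 (49 and 49 counts) were higher there only through the scaling to library size. For the 7 clients of the members, described below, the median difference was -2.34 and -3.65, with sums of 3072 and 2085 CPM. A higher level in replicate 1 was thus not particular to the members. Sums of endoderm markers were 110 and 99.2 CPM, beside 111 and 110 CPM in control, and those of pluripotent cells were 24.1 and 47.4 CPM, beside 29.2 and 30.4 CPM. Endothelial markers summed to 345 and 378 CPM (386 and 388 CPM in control), but their median difference was -0.22 and -0.95, so that sum and median gave opposite orders of the replicates. The same was true of blood markers, with sums of 354 and 277 CPM (413 and 425 CPM in control) and median differences of 0.58 and 0.70. Of these, 4 of 5 genes were above control in both Isl1-/- libraries, as were 29.1% of all genes tested. Hbb-bh1 was below control in both, at a log2 fold change of -1.51 (SE 0.58, adjusted p = 0.206, edgeR), and was not called. Of these marker genes only Runx1, a blood transcription factor, was called besides the cardiac ones (0.57, SE 0.073, adjusted p = 0.0335, edgeR). What part these markers had in the difference between the Isl1-/- libraries was not tested.

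**Figure D3:**
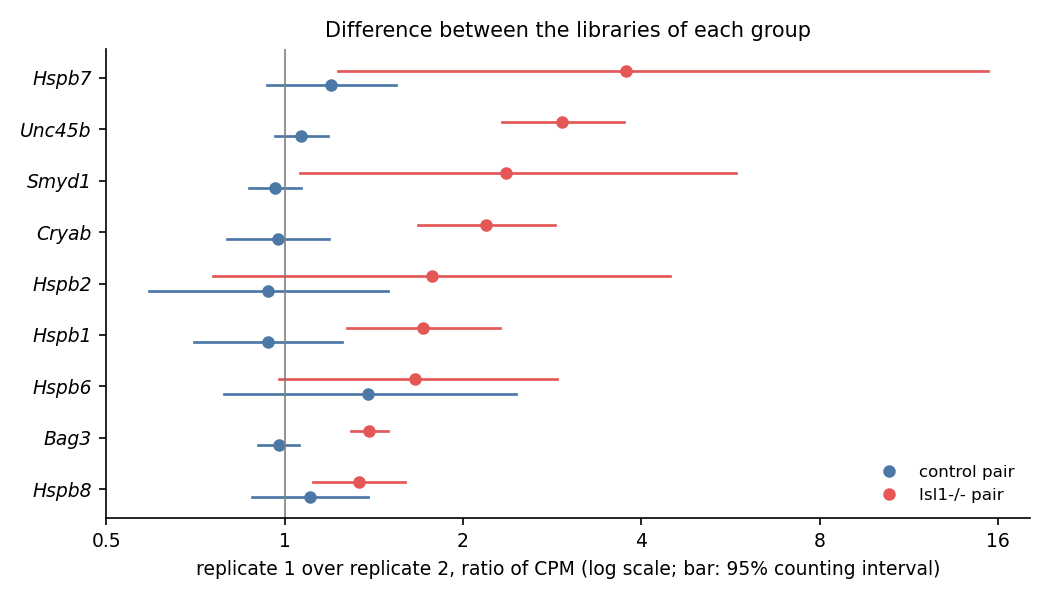
Ratio of CPM, replicate 1 over replicate 2, within the control pair (blue) and the Isl1-/- pair (red) on a log scale, with 95% exact counting intervals; Hspb3 has no counts in Isl1-/- CPCs and is left out. The red points of all 9 genes are above 1, from 1.33 (Hspb8) to 3.77 (Hspb7), and the blue intervals hold 1.

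The chaperones outside the muscle group were described with fixed lists, which were also chosen with earlier results of these data known. Of 14 relatives of the members (other UNC45, SMYD, BAG and small heat-shock genes), 11 were tested and 0 were called by edgeR, and their median log2 fold change was -0.08, beside -0.003 for all genes tested. The 6 members that reached the filter's cutoff in all 4 libraries had a median of -0.31. The most abundant of the relatives by CPM were Bag6 (-0.04, SE 0.066) and Bag1 (0.08, SE 0.062), which regulate Hsp70. Cryaa, the lens crystallin, had 0 counts in all libraries.

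Of 36 general chaperones and heat-shock response genes 1 was called, higher, and 0 were called lower, with a median of 0.12. Hspa8, Hsp90aa1, Hsp90ab1 and Dnajb6 are on this list and also among the partners. The called gene was Ahsa1, an activator of the Hsp90 ATPase, at 154 ± 6.32 CPM in control CPCs and 262 ± 25.8 CPM without Isl1 (SD, n = 2 each). It rose by 0.77 on the log2 scale (SE 0.092, adjusted p = 0.0288, edgeR). Hsp90b1, the Hsp90 of the endoplasmic reticulum, was at -0.11 (SE 0.092). Of the 8 subunits of the TRiC chaperonin, which folds actin and tubulin, 0 were called by edgeR, but all 8 lay above control in both Isl1-/- libraries, as did 29.1% of all genes, at log2 fold changes from 0.15 to 0.29 (Tcp1 0.22, SE 0.067, and Cct2 0.16, SE 0.078).

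Among partners and clients of the members, genes of the sarcomere were the ones called. The clients Flnc (-0.07) and Des (-1.45) were not called (adjusted p of 0.850 and 0.103, edgeR). Of 10 partners 1 was called: Synpo2, a Z-disc protein through which Bag3 acts in muscle, averaged 10.5 ± 0.358 CPM in control CPCs and 0.914 ± 0.556 CPM without Isl1 (SD, n = 2 each) and fell by 3.47 on the log2 scale (SE 0.37, adjusted p = 0.0201, edgeR). Of 7 clients 4 were called, all lower: besides the myosins these were Ttn (-7.01, SE 0.15) and Actc1 (-2.85, SE 0.41), which is also on the cardiac marker list, with adjusted p of 1.1e-04 and 0.0397 in edgeR's test. Vim, an intermediate filament gene of many cell types, was at 0.04 (SE 0.18, adjusted p = 0.911, edgeR), turning from -0.25 without Isl1-/- replicate 1 to 0.28 without replicate 2. With either control library left out, Synpo2, Actc1, Ahsa1 and the marker genes Runx1, Nkx2-5, Tbx5 and Tnni1 were no longer called, while Myh6, Myh7 and Ttn were.

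**Figure D4:**
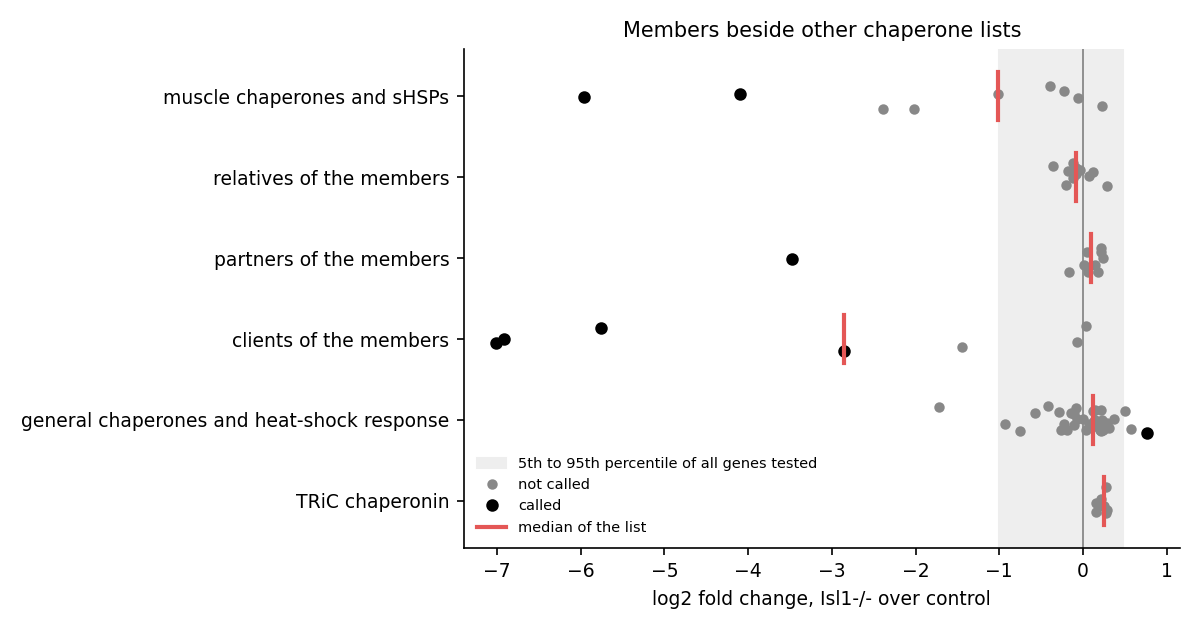
Log2 fold change of each tested gene in the members and in 5 other lists, with called genes in black, the median of each list as a red line and the range from the 5th to the 95th percentile of all genes tested as a grey band. The members' line, at -1.01, takes in Smyd1, Hspb2 and Hspb7, which reached the filter's cutoff in only 1 Isl1-/- library, and the median of the other 6 is -0.31. The clients' line is at -2.85 and those of the other lists are between -0.08 and 0.25.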

How the data were processed

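RNA-Seq was done on 4 libraries made with a stranded mRNA kit (Truseq). According to the study's methods the authors mapped reads to mm9 with STAR and counted exonic reads per RefSeq transcript with HOMER on both strands, without adjustment; versions are not given in the sources used here. The deposited counts are whole reads, and transcripts of 1 gene share them. RPKM, which the authors computed in edgeR and deposited beside the counts, served here only to compare levels per length. The authors' deposited log2 fold changes, p-values, Wald score and mean normalized signal come from DESeq2 and were not used.

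Of 31507 entries, 1 per symbol was kept (20701; among ties the entry listed first). Genes were tested with the quasi-likelihood test of edgeR 4.0.16 in R 4.3.3 (TMM, filterByExpr, no covariate, two-sided, Benjamini-Hochberg over 12715 genes, threshold 0.05). The filter asked for 0.974 CPM in 2 libraries. CPM used effective library sizes; log2 CPM used a prior count of 1. SEs came from the coefficient and its F statistic. DESeq2 1.42.0, limma 3.58.1, scipy 1.17.1 (exact binomial intervals, 95%) and matplotlib 3.10.9 were also used. The fit was tested on simulated data with the same spread in every library. That test does not cover the unequal spread of the pairs seen here. No label says that libraries came from separate cultures beyond the 2 clones a group, so p-values rest on the spread between these libraries. For each gene the fit took this spread, moderated across genes, as equal in both groups. The pairs differed in it, with chi-square over its degrees of freedom at 1.14 in control and 18.7 in Isl1-/- CPCs. An exact permutation test of 2 against 2 cannot go below 0.333. The floor of 3 counts was 0.228 to 0.340 CPM; it and the intervals cover counting error only, and no source used here names molecular identifiers.

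The members and lists were chosen with earlier results of these data known. Named were all members, Isl1, Unc45a, each called gene and the 2 most abundant genes of each list that is not a marker list, and called marker genes. Flnc and Vim are the abundant clients. Hbb-bh1 and Des were named after their values were seen. Gene positions are from GENCODE vM1 on NCBIM37, which mm9 is made from; promoter windows are RefSeq's on GRCm38.p6. Unmatched columns of per-sample values numbered 0.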

Additional observations from a re-analysis of the deposited data

How the results depend on the processing

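Alternatives to the test moved the counts more than the fold changes. The 311 genes and 2 members called became 602 and 4 with DESeq2, 993 and 5 with the study's criteria, 492 and 4 without a filter, and 867 and 4 with a limma voom fit weighted by group, which was added after the data were seen. Unc45b and Hspb2 then passed, at -2.39 and -2.03 in DESeq2 and by the study's criteria, -2.37 and -2.00 without a filter and -2.55 and -2.04 in the weighted fit, and Cryab passed by the study's criteria alone (-1.01). Against a 1.5-fold change 92 genes were called, Smyd1 and Hspb7 among them. With at least 10 counts in every library 0 of the 6 members left were called by edgeR, although Unc45b and Cryab had an unadjusted p under 0.05, and that filter removes Smyd1, Hspb2 and Hspb7.

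Leaving out one library gave 27 to 6350 genes (27 and 29 without control replicates 1 and 2, 6350 and 4176 without Isl1-/- replicates 1 and 2) and 1 to 7 members called. A lone library is then assumed to vary like the other pair. Ranges were -4.74 to -4.08 for Isl1, -6.73 to -5.51 for Smyd1, -3.37 to -1.82 for Unc45b, -5.35 to -3.47 for Hspb7, -2.49 to -1.68 for Hspb2, -1.69 to -0.57 for Cryab, -0.84 to -0.066 for Hspb1, -0.64 to 0.084 for Hspb6, 0.0038 to 0.42 for Hspb8 and -0.32 to 0.16 for Bag3. Among the clients Vim ranged from -0.25 to 0.28 and Flnc from -0.39 to 0.19.

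Blocking on the replicate number called 454 genes and 4 members, Unc45b (-2.52) and Hspb2 (-2.03) among them. Deviations from the group means did not go together in same-numbered libraries (r 0.0016 across 12640 genes, which are not independent), and nothing in the labels pairs the clones.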

Other observations

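Some genes near this group were picked after their values were seen. Hspa1a and Hspa1b, the inducible Hsp70 genes, are near-identical copies between which reads can be split. Hspa1a averaged 5.63 ± 0.0902 CPM in control CPCs and 1.68 ± 0.779 CPM without Isl1 (SD, n = 2 each), a difference of -1.72 on the log2 scale (SE 0.35, adjusted p = 0.0798, edgeR), and Hspa1b was at -0.93 (SE 0.22, adjusted p = 0.0978, edgeR). Neither was called, although both Isl1-/- libraries were below both control libraries for each, as they were for 29.0% of all genes tested. Des, which encodes the desmin that αB-crystallin protects, averaged 118 ± 3.23 CPM in control CPCs and 43.2 ± 23.1 CPM without Isl1, a difference of -1.45 on the log2 scale (SE 0.35, adjusted p = 0.103, edgeR). Like Cryab and Unc45b, it was higher in Isl1-/- replicate 1 (774 counts) than in replicate 2 (310 counts).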
